A study of Arabidopsis thaliana with 18 samples.

Results

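The 84 genes described here had more RNA in Arabidopsis roots given trans-zeatin than in untreated roots when phosphate was plentiful, while cis-zeatin at the same dose and time left them close to the untreated level. They were selected from the 37037 entries of the count table, of which 24653 had a read. Counts were divided by the library total and given as CPM, the counts scaled to a common total, and L is the log2 of a group's mean CPM plus 1. A gene had to reach a mean of 5 CPM in at least 1 of the 6 groups, which 16064 did. It also had to rise by at least 1 in L with trans-zeatin at full phosphate, stay between -0.3 and 0.3 with cis-zeatin, and differ by under 1 between untreated roots at low and full phosphate. The trans-zeatin step left 497 genes, the cis-zeatin band 119 and the phosphate band 84. Of the other genes with the trans-zeatin step, 342 lay above the cis-zeatin band and 36 below it.

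The study measured poly(A) RNA in roots of the Columbia (Col-0) ecotype with 3 libraries in each of 6 groups. Seedlings spent 8 days on Murashige and Skoog medium with 625 µM phosphate (full) or 5 µM phosphate (low, which the sample labels describe as without phosphate). At each level roots were left untreated or were given one zeatin isomer, trans or cis, at 5 µM during 8 h. No mutant or transgene was used, and the labels do not say whether the 3 libraries of a group came from separate cultures, so p-values cover only the spread between these libraries.

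Zeatin is a cytokinin, a plant hormone read by membrane histidine kinases that pass phosphate to response regulators in the nucleus. The isomers differ only in the geometry of the double bond of the side chain, and trans-zeatin is usually regarded as the more active form. In roots, cytokinins restrain growth and can favour greening. Sugar shortage switches on another programme, in which plants break down branched-chain amino acids, recycle cell wall sugars and express the dark-inducible (DIN) genes.

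The counted reads per library ranged from 20839562 to 21871669. Reads dropped because of undetermined bases split the libraries into sets. Each group fell whole into a set, except trans-zeatin roots at low phosphate. Untreated and trans-zeatin roots at full phosphate lay at 81544 to 85178 such reads. All cis-zeatin roots at full phosphate and untreated roots at low phosphate lay at 22738 to 25354. At low phosphate the trans-zeatin replicate 1 lay in the range of the untreated roots, at 23120, and the other trans-zeatin and all cis-zeatin libraries lay at 40794 to 58614. The trans-zeatin step of the selection was therefore taken within a set, and the cis-zeatin band and the phosphate band across sets. What the sets stand for is not recorded. The zeatin libraries numbered 2 at low phosphate stood apart from their groups. The chi-square per degree of freedom between counts of paired libraries was 30.73 and 28.44 for cis-zeatin replicate 2 against the others, which differed from each other by 4.26. For trans-zeatin replicate 2 it was 20.68 and 13.63, against 6.96 between the others. In roots, a lower level of a gene cannot be told apart from fewer cells that express it.

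These values chose the genes and are given with no test. In all 84 genes every trans-zeatin library at full phosphate exceeded every untreated one, against 25.9% of the 16064 genes above the CPM floor. The L difference had a median of 1.18 and ran from 1.02 to 2.89. With cis-zeatin at full phosphate the median difference was 0.07, and it was positive in 54 genes. All cis-zeatin libraries exceeded the untreated ones in 15 genes, against 16% of genes above the floor, and lay below them in 3, against 38.4%. The sum of CPM over the 84 genes was 2910 to 3205 in untreated roots, 3040 to 3434 with cis-zeatin and 7635 to 8201 with trans-zeatin. Close inside the step were CLC-E (1.02), PSAN (1.02) and AT1G67700 (1.04), and close outside it were GDPD2, BAM4 and AT1G11175 (each 0.99). The upper edge of the cis-zeatin band fell between GRXS13 (0.29), PDX1.1 (0.29) or ALDH11A3 (0.29) inside and CCB1 (0.31), AT5G06980 (0.31) or Rap2.6L (0.32) outside. At its lower edge AT4G27450 (-0.27), PSAN (-0.28) and AT1G26420 (-0.30) were inside, and PLPB (-0.34), MLO3 (-0.34) and AT3G61210 (-0.34) outside. At the phosphate band AT5G43450 (-0.96), PSAN (-0.98) and AT3G49790 (-0.99) were inside, and AAP3 (1.02), GLYI7 (-1.03) and AT1G54740 (-1.04) outside. At the CPM floor ALDH11A3 (5.34 CPM), PUP10 (5.43) and CLC-E (5.59) were inside, and TRM24 (4.98), AT1G60000 (4.73) and XERO1 (3.54) outside.

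**Figure D1:**
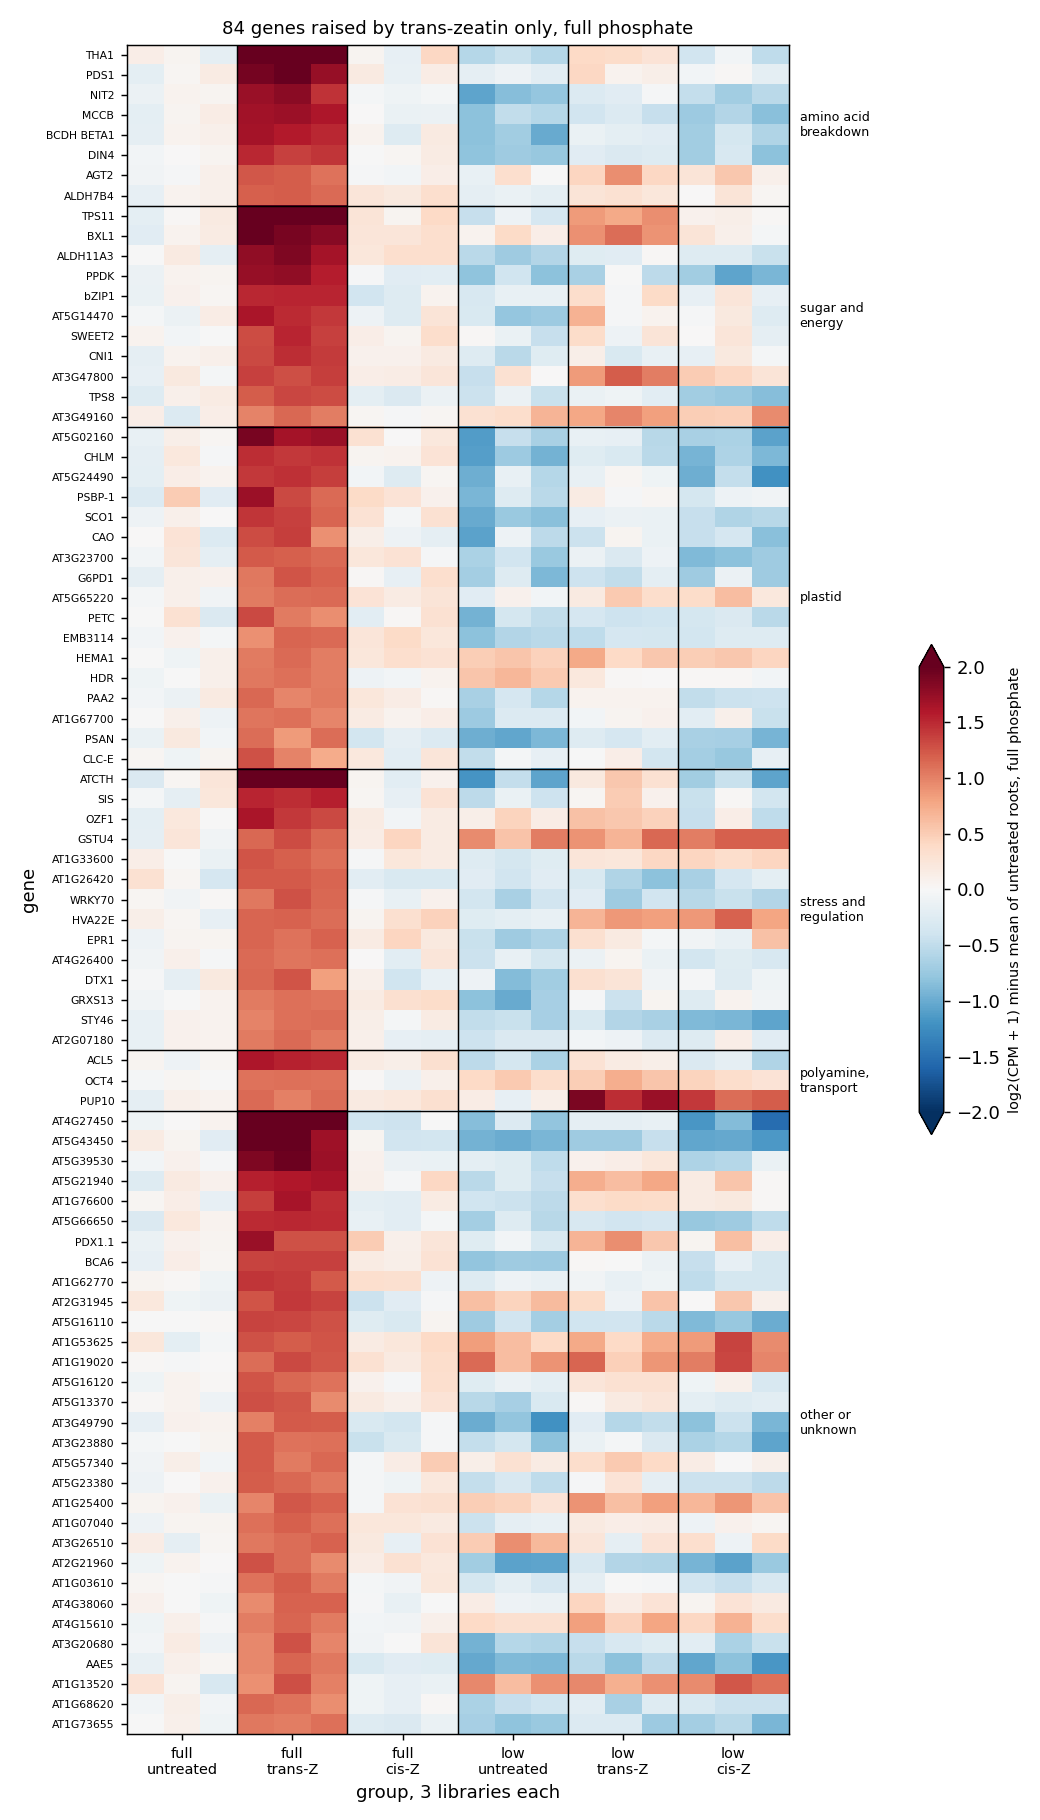
Each row is 1 of the 84 genes and each column 1 of the 18 libraries; colour is log2(CPM + 1) minus the mean of the 3 untreated libraries at full phosphate, and values beyond 2 or -2 take the end colours. The 3 trans-zeatin libraries at full phosphate are red in every row, and most rows are blue or pale in the untreated roots at low phosphate.

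The amino acid breakdown group held 8 genes, with the nitrilase NIT2 counted among them. Their L difference with trans-zeatin at full phosphate had a median of 1.62. The largest difference of all 84 was that of THA1 (AT1G08630), a threonine aldolase that splits threonine into glycine and acetaldehyde. Its untreated libraries at full phosphate held 0.704, 0.606 and 0.372 CPM, its cis-zeatin libraries 0.618, 0.384 and 1.08 CPM, and its trans-zeatin libraries 9.95, 10.8 and 10.98 CPM. THA1 was thus nearly silent without trans-zeatin. In untreated roots at low phosphate its mean was 0.079 CPM, a log2 change of -2.73 in edgeR. The pseudocount held this within the phosphate band. Of the branched-chain amino acid pathway, MCCB (AT4G34030), the beta subunit of the carboxylase of leucine breakdown, had 35.6, 42.7 and 45.4 CPM untreated, 41.2, 37.3 and 37.6 CPM with cis-zeatin and 134, 136 and 128 CPM with trans-zeatin. DIN4 (AT3G13450) and BCDH BETA1 (AT1G55510), both E1 beta subunits of the branched-chain keto acid dehydrogenase that acts earlier in the same pathway, were 2.79-fold and 3.13-fold higher with trans-zeatin. In each of these genes cis-zeatin and untreated libraries overlapped.

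PDS1 (AT1G06570), the dioxygenase that makes homogentisate from a product of tyrosine, had 25.1, 29.8 and 32.6 CPM untreated, 32.9, 26.2 and 32.3 CPM with cis-zeatin and 113, 119.5 and 98.9 CPM with trans-zeatin. NIT2 (AT3G44300), a nitrilase that turns nitriles into acids, had the highest level per length of the 84 genes with trans-zeatin at full phosphate, at 584 CPM per kb of exon. Its libraries held 259, 295 and 291 CPM untreated, 273, 266 and 274 CPM with cis-zeatin and 933, 990.1 and 766 CPM with trans-zeatin. Related nitrilase genes lie beside NIT2. Whether reads were shared with them was not checked, so the level of NIT2 is uncertain. AGT2 (AT4G39660), an aminotransferase that makes glycine from glyoxylate, and ALDH7B4 (AT1G54100), an aldehyde dehydrogenase with a role in lysine breakdown, were 2.28-fold and 2.26-fold higher with trans-zeatin.

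Sugar and energy metabolism took 11 genes, with a median L difference of 1.51. TPS11 (AT2G18700) and TPS8 (AT1G70290) belong to the class II trehalose-phosphate synthases, relatives of the enzyme that makes the sugar signal trehalose 6-phosphate. TPS11 had 36.6, 42.8 and 48.1 CPM untreated, 51.0, 43.7 and 56.2 CPM with cis-zeatin and 189.7, 205 and 187 CPM with trans-zeatin. TPS8 had 62.6, 80.0 and 83.9 CPM untreated, 65.5, 61.1 and 69.0 CPM with cis-zeatin and 174, 191 and 187 CPM with trans-zeatin. The trans-zeatin libraries of both stood clear of all others at full phosphate. BXL1 (AT5G49360), a beta-xylosidase that trims xylose from cell wall polymers, had 39.0, 48.2 and 51.8 CPM untreated, 54.4, 54.8 and 58.5 CPM with cis-zeatin and 187, 175 and 165 CPM with trans-zeatin. Its cis-zeatin libraries all lay slightly above the untreated ones, inside the band of the selection.

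bZIP1 (AT5G49450), a transcription factor of the low-energy response, had 12.8, 15.1 and 14.6 CPM untreated, 10.6, 11.6 and 14.9 CPM with cis-zeatin and 41.8, 42.5 and 42.2 CPM with trans-zeatin. PPDK (AT4G15530) interconverts pyruvate and phosphoenolpyruvate and had an L difference of 1.70. ALDH11A3 (AT2G24270), a glyceraldehyde-3-phosphate dehydrogenase that makes NADPH, was 6.13-fold higher from a mean of 0.872 CPM. Every cis-zeatin library exceeded every untreated one, by 1.49-fold in the mean. At low phosphate its untreated mean was 0.22 CPM (log2 change -1.94 in edgeR). The pseudocount of 1 held both differences inside the bands of the selection. The kinase-family gene AT5G14470 was 3.18-fold, the ubiquitin ligase CNI1 (AT5G27420), which acts in the carbon to nitrogen balance, 2.74-fold, and the vacuolar sugar transporter SWEET2 (AT3G14770) 2.67-fold higher. The galactose mutarotase-like gene AT3G47800 (2.58-fold) and the pyruvate kinase-family gene AT3G49160 (2.40-fold) completed the group.

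Plastid proteins were the largest group with a known role, at 17 genes and a median L difference of 1.10. Tetrapyrrole synthesis contributed HEMA1 (AT1G58290), which makes the first committed precursor of chlorophyll and haem, and CHLM (AT4G25080), a methyltransferase of the chlorophyll branch. HEMA1 had 42.0, 39.5 and 45.2 CPM untreated, 49.7, 53.3 and 51.7 CPM with cis-zeatin and 87.7, 94.0 and 86.3 CPM with trans-zeatin. CHLM had 11.4, 15.3 and 12.9 CPM untreated, 13.6, 13.8 and 15.98 CPM with cis-zeatin and 38.3, 36.6 and 37.4 CPM with trans-zeatin. In HEMA1 the cis-zeatin libraries exceeded all untreated ones, by less than the band allows. Photosynthetic subunits were present at low levels: PSBP-1 of photosystem II, PSAN of photosystem I and PETC, the Rieske protein of the cytochrome complex, had means of 18.25, 8.76 and 6.06 CPM with trans-zeatin.

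Plastid translation was represented by SCO1 (AT1G62750), an elongation factor, at 31.3, 36.1 and 34.1 CPM untreated, 41.7, 33.0 and 42.1 CPM with cis-zeatin and 92.5, 88.8 and 76.6 CPM with trans-zeatin, and by the ribosomal protein genes AT5G24490 (2.73-fold) and AT5G65220 (2.22-fold). AT5G02160, a plastid-located protein without a known role, was 4.64-fold higher, from 1.59, 2.15 and 1.95 CPM untreated to 9.72, 8.16 and 8.54 CPM with trans-zeatin. Transporters of the thylakoid were PAA2, a copper pump (2.22-fold), and CLC-E, a chloride channel (2.48-fold). HDR (AT4G34350), the last enzyme of plastid isoprenoid precursor synthesis, had 74.3, 78.9 and 85.1 CPM untreated, 74.1, 76.7 and 83.4 CPM with cis-zeatin and 166, 170.4 and 162 CPM with trans-zeatin. G6PD1, which feeds the plastid pentose phosphate pathway, the signal recognition particle component CAO and the transcription termination-type factor EMB3114 were 2.82-fold, 2.78-fold and 2.21-fold higher. Among the genes for which RefSeq carries a note on location, 22 of 49 of the 84 (44.9%) were noted as chloroplast or plastid, against 1787 of 8970 (19.9%) above the CPM floor and 58 of 285 (20.4%) of all genes with the trans-zeatin step.

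Of 18 other genes of photosynthesis and greening, outside the selection, 10 rose with trans-zeatin at full phosphate and GLK1 fell in edgeR's quasi-likelihood test at an adjusted p under 0.05, with a median log2 change of 0.78. Over all 19982 genes tested 24.2% rose and 25.3% fell. In untreated roots 14 of the 18 were lower at low than at full phosphate and none was higher (median -1.33), where 21.8% of all genes fell. At low phosphate 2 rose and none fell with trans-zeatin (median 0.00), where 13.8% of all genes rose. There 1 was higher and none lower with trans- than with cis-zeatin (median 0.25), where 1.35% of all genes were higher. The summed level of all 19 genes of this list was 105 to 167 CPM in untreated and 205 to 280.3 CPM in trans-zeatin roots at full phosphate. The summed levels thus did not overlap, and their part in the plastid group was not tested.

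Regulators and stress proteins made up 14 genes, with a median L difference of 1.15. ATCTH (AT2G25900), a CCCH zinc finger protein, had the second largest difference of the 84. Its libraries held 18.5, 23.6 and 27.2 CPM untreated, 23.7, 19.6 and 24.4 CPM with cis-zeatin and 115, 118 and 111 CPM with trans-zeatin. The related zinc finger gene OZF1 (AT2G19810), known from oxidative stress, stood at 3.14, 4.52 and 3.72 CPM untreated, 4.33, 3.599 and 4.36 CPM with cis-zeatin and 13.7, 11.7 and 10.9 CPM with trans-zeatin. In both genes the cis-zeatin and untreated libraries overlapped. STY46 (AT4G38470), a kinase that phosphorylates transit peptides of chloroplast proteins, had an L difference of 1.07 and was among the most abundant, at 249.9 CPM per kb. SIS, known from salt stress, was 3.02-fold higher. GSTU4, a glutathione transferase, and DTX1, an efflux carrier, were 2.45-fold and 2.38-fold higher. The defence regulator WRKY70, the glutaredoxin GRXS13, the abscisic acid-induced HVA22E and the clock-related MYB factor EPR1 were 2.11-fold to 2.38-fold higher.

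Polyamine and transport genes were ACL5 (AT5G19530), PUP10 (AT4G18210) and OCT4 (AT3G20660). ACL5 is the thermospermine synthase that limits xylem differentiation. It had 131, 118 and 129.9 CPM untreated, 142, 137 and 157 CPM with cis-zeatin and 389.5, 367 and 361 CPM with trans-zeatin. PUP10, of a family of purine permeases, had 0.751, 1.12 and 1.07 CPM untreated, 1.24, 1.296 and 1.45 CPM with cis-zeatin and 3.32, 2.95 and 3.28 CPM with trans-zeatin. Every cis-zeatin library of PUP10 exceeded every untreated one. OCT4, an organic cation transporter, was 2.19-fold higher with trans-zeatin.

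The remaining 31 genes belonged to none of these groups, and many have no known role. AT4G27450, annotated as an aluminium-induced protein, was the highest of them in L difference, at 2.08. It had 23.2, 24.7 and 26.0 CPM untreated, 18.3, 18.1 and 24.5 CPM with cis-zeatin and 106, 111 and 105 CPM with trans-zeatin. Cis-zeatin and untreated libraries overlapped. AT5G43450, an oxygenase-family gene, and AT5G39530, of unknown function, were 4.56-fold and 6.28-fold higher with trans-zeatin from means below 5 CPM, and AT5G21940 and AT1G76600 were 3.05-fold and 2.96-fold higher. BCA6, a carbonic anhydrase, had 33.0, 40.7 and 38.1 CPM untreated, 41.8, 40.5 and 45.7 CPM with cis-zeatin and 95.9, 97.5 and 97.4 CPM with trans-zeatin. AT5G16110 and AT4G15610, both of unknown function, were among the most abundant at 454 and 356 CPM per kb. Next to NIT2, these genes, STY46 and ACL5 (219.5 CPM per kb) came ALDH7B4 (189.8), AT1G19020 (135), GRXS13 (106), SWEET2 (100.5) and AT5G21940 (97.4), and PUP10 was lowest (1.23). Direct neighbours on the chromosome were AT5G16110 with AT5G16120, and PAA2 with AT5G21940, of which the latter pair overlap and could share reads.

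**Figure D2:**
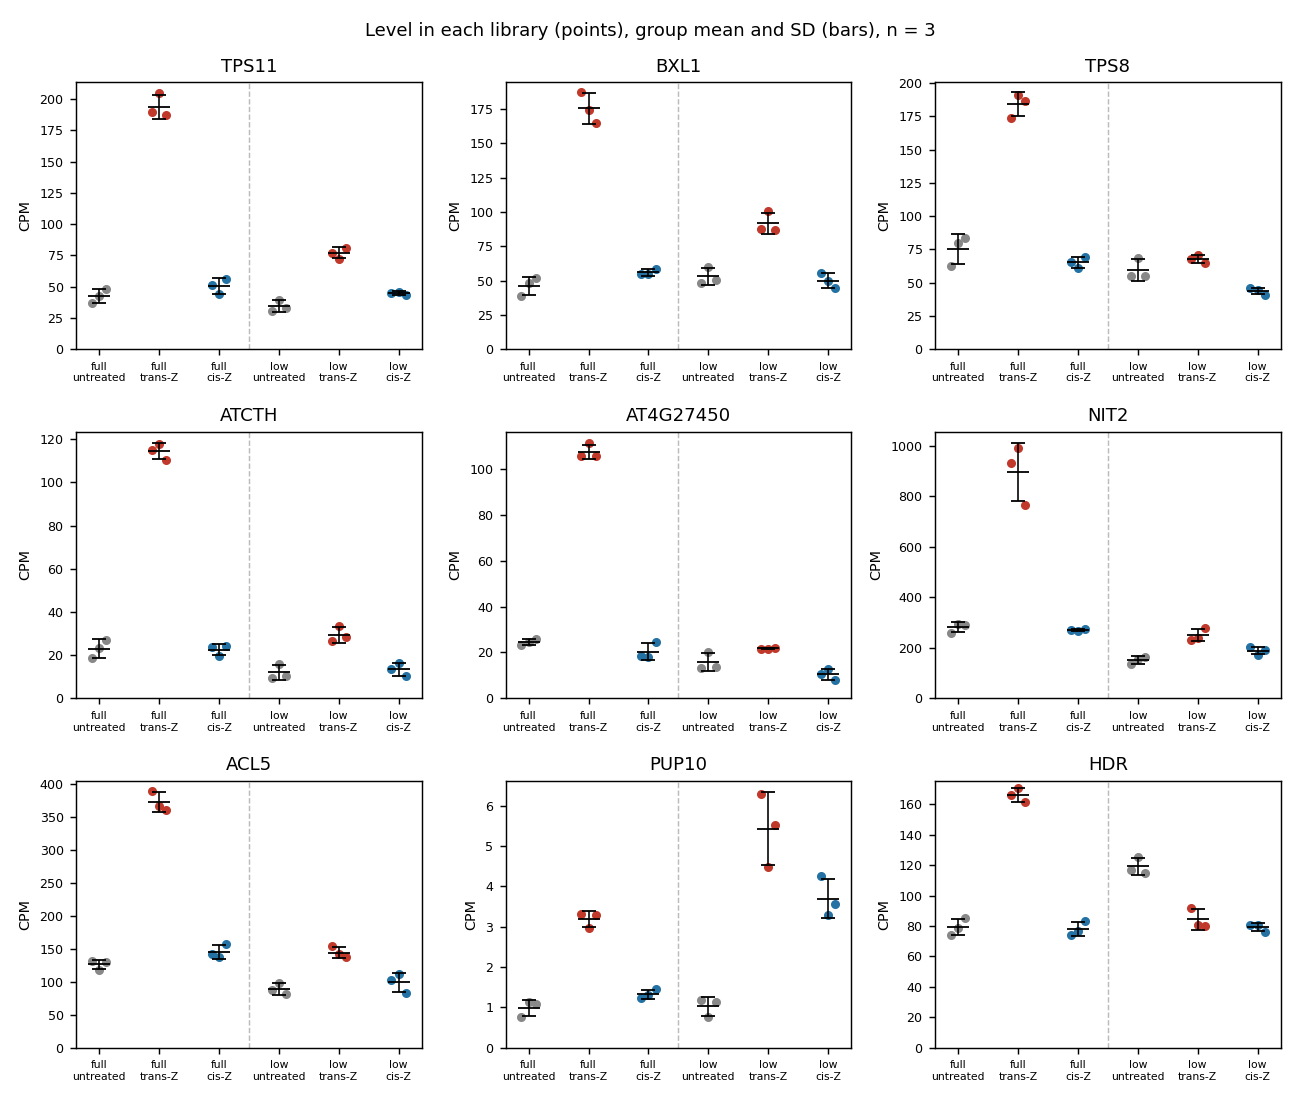
Level in CPM of 9 genes in each library (points) with the group mean and SD (bars, n = 3), full phosphate left of the dashed line and low phosphate right of it. In all 9 the trans-zeatin libraries at full phosphate lie above every untreated and cis-zeatin library at full phosphate; at low phosphate PUP10 is higher with both isomers and HDR is lower with both.

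Promoter sequences are shown for the 5 genes whose difference between the isomers at low phosphate, given further on, was called in each of the 14 alternative fits that kept the test free of a fold threshold. Each is the 300 bases before the start of the gene in RefSeq's annotation of TAIR10.1, matched by locus identifier and written 5′ to 3′ on the gene's strand. No source used here names the assembly behind the count table. Capitals mark GATAAG and TATCCA or their reverse complements CTTATC and TGGATA, which were picked for display after the motif shares among the 84 genes and among all promoters were seen. GATAAG is the core bound by GATA factors and TATCCA is known from sugar-repressed promoters.
TPS11 (chr2:8108598-8108897, plus strand): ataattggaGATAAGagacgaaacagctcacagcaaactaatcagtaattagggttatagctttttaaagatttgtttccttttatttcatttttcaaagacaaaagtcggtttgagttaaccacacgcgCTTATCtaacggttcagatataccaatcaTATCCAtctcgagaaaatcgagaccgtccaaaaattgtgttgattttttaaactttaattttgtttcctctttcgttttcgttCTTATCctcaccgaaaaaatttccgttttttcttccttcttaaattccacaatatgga
TPS8 (chr1:26474834-26475133, minus strand): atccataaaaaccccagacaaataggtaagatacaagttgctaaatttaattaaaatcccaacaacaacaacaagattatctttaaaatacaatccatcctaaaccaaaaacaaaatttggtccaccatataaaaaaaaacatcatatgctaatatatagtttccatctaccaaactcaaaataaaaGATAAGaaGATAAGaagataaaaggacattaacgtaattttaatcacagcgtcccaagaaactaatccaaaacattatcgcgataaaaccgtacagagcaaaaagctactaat
AT4G27450 (chr4:13729003-13729302, minus strand): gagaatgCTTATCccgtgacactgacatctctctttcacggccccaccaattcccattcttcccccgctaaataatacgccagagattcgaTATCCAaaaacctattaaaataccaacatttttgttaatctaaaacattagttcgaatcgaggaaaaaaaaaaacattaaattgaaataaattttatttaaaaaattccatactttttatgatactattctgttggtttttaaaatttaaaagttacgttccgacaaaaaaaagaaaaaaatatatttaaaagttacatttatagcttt
ATCTH (chr2:11041031-11041330, plus strand): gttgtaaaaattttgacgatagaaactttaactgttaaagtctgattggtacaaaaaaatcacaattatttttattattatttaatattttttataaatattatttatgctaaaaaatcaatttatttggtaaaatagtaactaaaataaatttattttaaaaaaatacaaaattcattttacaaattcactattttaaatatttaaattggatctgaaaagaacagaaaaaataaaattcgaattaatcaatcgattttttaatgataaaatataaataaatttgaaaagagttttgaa
BXL1 (chr5:20016858-20017157, minus strand): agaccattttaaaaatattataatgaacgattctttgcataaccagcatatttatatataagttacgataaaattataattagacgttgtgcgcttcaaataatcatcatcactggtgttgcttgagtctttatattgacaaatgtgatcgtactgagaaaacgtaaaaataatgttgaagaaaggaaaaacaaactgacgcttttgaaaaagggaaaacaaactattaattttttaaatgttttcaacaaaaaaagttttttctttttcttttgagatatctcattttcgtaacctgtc

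TPS11 held 3 copies of GATAAG, TPS8 held 2 and AT4G27450 held 1, and TPS11 and AT4G27450 held 1 TATCCA each; ATCTH and BXL1 held neither in this window. On either strand GATAAG lay in 24 of the 84 promoters (28.6%), against 14.5% of all 27443 protein-coding promoters, 14.3% of those of genes above the CPM floor and 18.1% of those of 277 genes that had the trans-zeatin step but lay above the cis-zeatin band. TATCCA, which can overlap the reverse of GATAAG by 4 bases, lay in 23.8% against 16.2% of all promoters. The abscisic acid core ACGTG was in 34.5% against 25.6%, and its extended form CACGTG, which contains it, in 8.3% against 7.1%. The cores of cytokinin response regulator sites, AGATT and AGATC, were in 65.5% and 26.2% of the 84 and in 70.7% and 31.7% of all. TTGAC lay in 42 of the 84 promoters and in 50.4% of all. TGTCTC lay in 14 of the 84 and in 3558 of the 27443. The shares were 2.4% and 2.8% for AAAATATCT and 1.2% and 2.3% for GCCGCC. These shares are descriptions, with no test.

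The isomers at low phosphate were compared between libraries outside the trans-zeatin step, the cis-zeatin band and the phosphate band. PUP10 alone passed the CPM floor only there. The spread behind the p-values was fitted over all 18 libraries, which include those of the selection. Fitted on the compared groups alone, 6 of the 84 genes were called, all among the 18 below, and 79 over all genes. Of the 84 genes, all of which had enough reads to be tested, 18 were higher with trans- than with cis-zeatin and none was lower at an adjusted p under 0.05 in edgeR. That is 21.4% of the genes, where 1.35% of the 19982 genes tested were higher and 1.42% lower. Among the 16063 tested genes above the CPM floor the shares were 1.54% higher, 1.68% lower and 3.22% in either direction. The count of 0 lower genes was also 0 in DESeq2, which called 29 higher. Over all genes DESeq2 called 480 higher and 418 lower. The median log2 difference over the 84 genes was 0.33, beside 0.00 over all genes. Every trans-zeatin library exceeded every cis-zeatin library in 45 of the 84 genes, against 10.6% of genes above the CPM floor, and lay below in 1, against 7.31%. Among the 278 genes that had the trans-zeatin step and the phosphate band but lay above the cis-zeatin band, 27 (9.71%) were higher with trans-zeatin and 1 was lower; the difference between these shares was not tested.

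BXL1 had 87.4, 100.6 and 86.9 CPM with trans-zeatin and 55.5, 49.3 and 44.9 CPM with cis-zeatin at low phosphate, a log2 difference of 0.85 ± 0.10 (SE, adjusted p = 0.000143 in edgeR). TPS11 had 77.2, 72.4 and 81.2 CPM with trans-zeatin and 44.7, 46.0 and 43.0 CPM with cis-zeatin, a difference of 0.76 ± 0.11 (SE, adjusted p = 0.000607 in edgeR). TPS8 had 68.0, 70.5 and 64.7 CPM with trans-zeatin and 45.8, 44.5 and 40.9 CPM with cis-zeatin, a difference of 0.60 ± 0.11 (SE, adjusted p = 0.00322 in edgeR). In these sugar-related genes the groups did not overlap. ATCTH had 26.4, 33.6 and 28.5 CPM with trans-zeatin and 13.7, 16.6 and 10.4 CPM with cis-zeatin, a difference of 1.09 ± 0.17 (SE, adjusted p = 0.00115 in edgeR). AT4G27450 had 21.7, 21.5 and 22.1 CPM with trans-zeatin and 10.4, 12.98 and 7.90 CPM with cis-zeatin, a difference of 1.03 ± 0.16 (SE, adjusted p = 0.00107 in edgeR). Neither gene's groups overlapped. These 5 calls were kept in all 14 such fits, and their lowest differences there lay between 0.55 for TPS8 and 0.93 for ATCTH.

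ACL5 had 154, 142 and 137 CPM with trans-zeatin and 103, 111 and 83.2 CPM with cis-zeatin at low phosphate (log2 difference 0.51 ± 0.10 SE, adjusted p = 0.00765 in edgeR), and lost its call in 1 alternative, the fit of the 2 groups alone. OZF1 had 6.14, 5.90 and 5.57 CPM with trans-zeatin and 2.47, 4.21 and 2.34 CPM with cis-zeatin (0.94 ± 0.19 SE, adjusted p = 0.00964 in edgeR), and lost its call in the same fit. THA1 was close to silent at low phosphate, at 1.04, 1.01 and 0.882 CPM with trans-zeatin and 0.187, 0.503 and 0.093 CPM with cis-zeatin (adjusted p = 0.0203 in edgeR). Its groups did not overlap, and its call was lost in 5 of 14 alternatives. AT5G39530 (8 of 14 lost), AT3G23880 (7) and AT5G24490 (2) were also called. The other called genes were AT3G47800, PAA2, AT3G23700, SCO1, STY46, AT5G16110 and AT5G23380, with log2 differences of 0.39 to 0.79.

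By role, 4 of 11 sugar and energy genes were higher with trans- than with cis-zeatin at low phosphate, as were 4 of 17 plastid, 3 of 14 regulatory and stress, 1 of 3 polyamine and transport, 1 of 8 amino acid breakdown and 5 of 31 other genes. The genes of the amino acid breakdown group that were not called all had positive differences. Among them were MCCB (0.33 ± 0.10 SE, adjusted p = 0.0796 in edgeR) and the nitrilase NIT2, counted in that group (0.37 ± 0.10 SE, adjusted p = 0.0575). The regulatory and stress group had a median of 0.03, with 7 of its 14 mean levels above those with cis-zeatin. The widest difference in the other direction was that of AT1G53625, at -0.47 ± 0.14 (SE, adjusted p = 0.0764 in edgeR). With cis-zeatin replicate 3 left out, 10 genes were called. Without both zeatin libraries numbered 2, which stood apart from their groups, 20 genes were called, all higher, and 13 of the 18 calls were kept. Within the read-discard set that holds all cis-zeatin libraries, which leaves out trans-zeatin replicate 1, 13 were called, all higher. Over all genes these fits called 399, 325 and 397, in that order, beside 553 in the main fit. The summed level of 5 heat-shock genes was 228 to 439 CPM with cis-zeatin and 147 to 227 CPM with trans-zeatin, and 2 of the 4 tested were lower with trans-zeatin; their part in the difference was not tested.

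**Figure D3:**
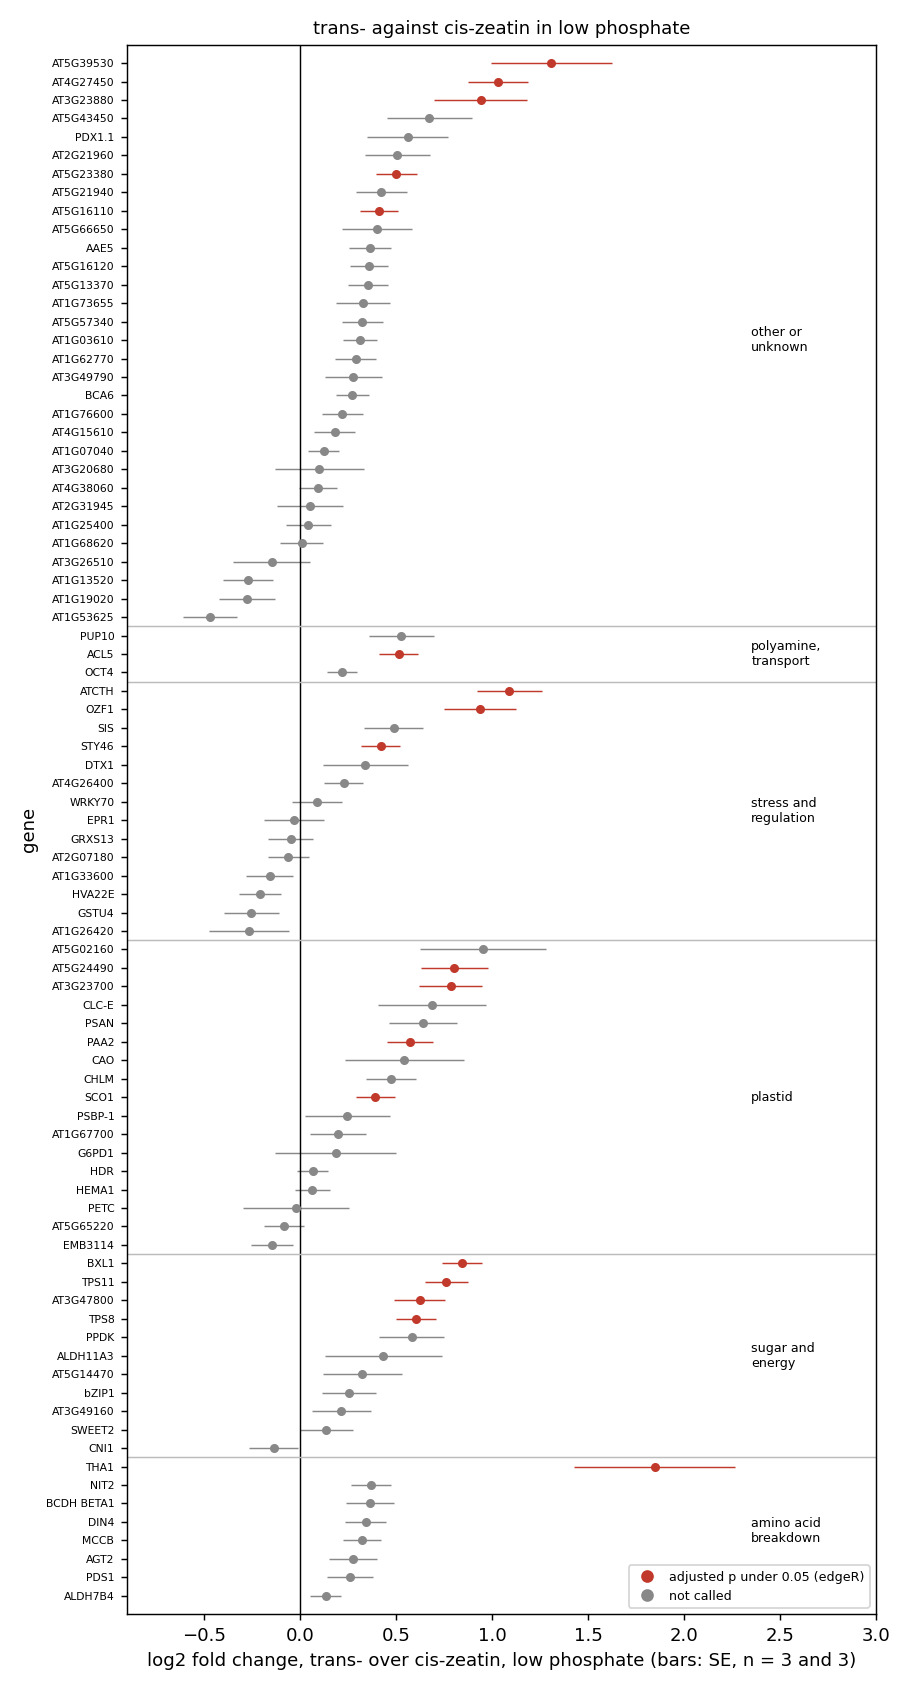
Log2 fold change of trans- over cis-zeatin at low phosphate for each of the 84 genes, with its SE, from edgeR; red points are the 18 genes with an adjusted p under 0.05, and all of them lie to the right of 0.

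Against untreated roots at low phosphate, 52 of the 84 genes rose with trans-zeatin (61.9%) and 2 fell, where 13.8% of all genes tested rose, 18.4% fell and 32.2% did either in edgeR. Above the CPM floor 14.5% rose, 20.1% fell and 34.6% did either. The median log2 change was 0.49, beside -0.01 over all genes. At least 2-fold were 12 of the 52, and no share over all genes was counted at that fold. PUP10, whose high level in this group was a condition of its selection, is counted in the 52 and the 12. The untreated roots of this contrast also set the phosphate band of the selection. All 3 trans-zeatin libraries exceeded all untreated ones in 57 genes, PUP10 among them, against 17.2% of genes above the CPM floor. ATCTH, at 9.57, 16.05 and 10.4 CPM untreated, rose by 1.29 ± 0.17 (log2, SE, adjusted p = 3.98e-06). TPS11, at 30.5, 39.4 and 33.1 CPM untreated, rose by 1.17 ± 0.11 (adjusted p = 3.81e-08), and BXL1, at 48.3, 60.2 and 50.7 CPM, by 0.79 ± 0.10 (adjusted p = 3.73e-06). In all 3 the untreated libraries lay below the trans-zeatin ones.

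PUP10 reached the CPM floor only through trans-zeatin at low phosphate. Its being high in that group was therefore a condition of its selection, and no p-value is given. It went from 1.18, 0.757 and 1.13 CPM untreated to 6.28, 4.47 and 5.53 CPM with trans-zeatin at low phosphate, a difference of 2.40 ± 0.20 (log2, SE). THA1, untreated at 0.047, 0.142 and 0.047 CPM, was called higher (adjusted p = 2.72e-05 in edgeR), from a level near the counting limit. ALDH11A3 rose by 1.61 ± 0.36 and PDX1.1, a vitamin B6 synthesis protein, by 1.32 ± 0.23. By role, 7 of 8 amino acid breakdown genes rose with trans-zeatin, as did 8 of 11 sugar and energy and 10 of 17 plastid genes. Rises also came in 7 of 14 regulatory and stress, 2 of 3 polyamine and transport (PUP10 included) and 18 of 31 other genes. NIT2 rose by 0.72 ± 0.10 from 135, 155 and 165 CPM to 231, 240.3 and 277 CPM, DIN4 by 0.54 ± 0.11 and bZIP1 by 0.49 ± 0.14. MCCB was at 0.26 ± 0.10 (adjusted p = 0.0508) and did not pass.

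HDR and AT3G26510 fell with trans-zeatin at low phosphate. HDR had 117, 126 and 115 CPM untreated and 92.1, 80.9 and 80.0 CPM with trans-zeatin, a log2 change of -0.49 ± 0.08 (SE, adjusted p = 5.42e-05 in edgeR). AT3G26510, a gene with a Phox and Bem1 domain, had 5.28, 7.38 and 5.96 CPM untreated and 4.20, 2.91 and 4.32 CPM with trans-zeatin, a change of -0.70 ± 0.19 (SE, adjusted p = 0.00735 in edgeR). Neither pair of groups overlapped. The number of genes called was 44 when the only trans-zeatin library was the one from the read-discard set of the untreated libraries, whose spread is then taken from the other groups.

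With cis-zeatin against the same untreated roots, 24 of the 84 genes rose (28.6%) and 7 fell (8.33%), where 13.1% of all genes tested rose and 18.1% fell in edgeR. Above the CPM floor 13.7% rose, 20% fell and 33.7% did either. The 2 comparisons with untreated roots share the untreated libraries, which also set the phosphate band of the selection. The median log2 change was 0.21, beside -0.03 over all genes, and the groups did not overlap in 25 genes upward, against 14.6% of genes above the CPM floor, and in 8 downward, against 28.8%. PUP10 rose to 4.25, 3.29 and 3.55 CPM with cis-zeatin, by 1.88 ± 0.21 on the log2 scale (SE, adjusted p = 5.36e-07). HVA22E rose 2.47-fold, from 5.84, 6.11 and 6.34 CPM to 13.8, 17.42 and 13.04 CPM (adjusted p = 3.24e-08), without overlap. Further log2 rises were those of ALDH11A3 by 1.17 ± 0.39, the leucine-rich repeat gene AT1G33600 by 0.91 ± 0.13 and EPR1 by 0.87 ± 0.17. With trans-zeatin HVA22E changed by 1.10 ± 0.12, AT1G33600 by 0.75 ± 0.13 and EPR1 by 0.84 ± 0.17.

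Genes that fell with cis-zeatin at low phosphate were OZF1 (-0.59 ± 0.19 log2, SE), HDR (-0.56 ± 0.08), AT4G27450 (-0.56 ± 0.16), AT3G26510 (-0.55 ± 0.19), TPS8 (-0.41 ± 0.11), STY46 (-0.39 ± 0.10) and AT5G16110 (-0.26 ± 0.10), each at an adjusted p under 0.05 in edgeR. Untreated levels were 55.1, 68.7 and 54.7 CPM for TPS8 and 13.1, 20.2 and 13.9 CPM for AT4G27450, above all cis-zeatin libraries of either gene. With trans-zeatin TPS8 was at 0.19 ± 0.10 (adjusted p = 0.18) and AT4G27450 at 0.47 ± 0.15 (adjusted p = 0.0206). All cis-zeatin libraries at low phosphate come from another read-discard set than the untreated ones. The set and the treatment therefore cannot be told apart in this comparison. With the set as a term 12 genes were called, 10 of them among the 31, and none of the 7 falls. Over all genes the number called went from 6233 to 2678, and that of falls from 3620 to 1206. That term rests on trans-zeatin replicate 1 against the other trans-zeatin libraries at low phosphate. Nothing is read from the lost falls.

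**Figure D4:**
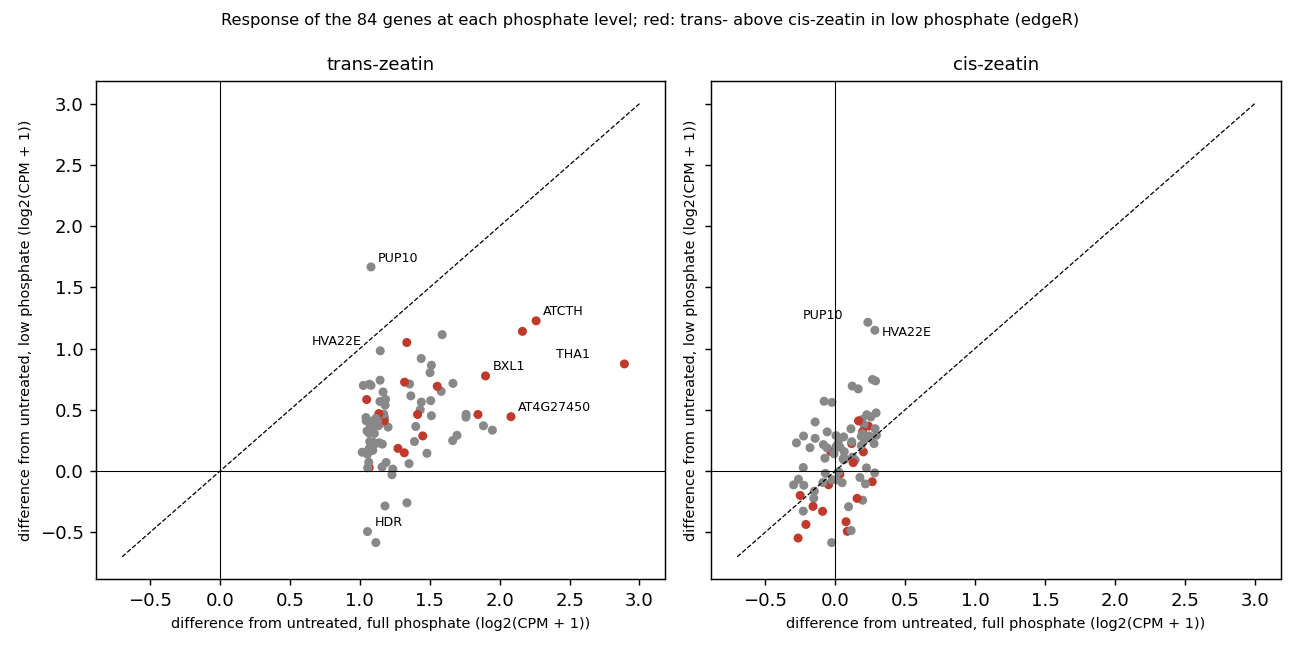
Each point is 1 of the 84 genes: difference from untreated roots in log2(CPM + 1) at full phosphate on the x axis and at low phosphate on the y axis, for trans-zeatin (left) and cis-zeatin (right), with the dashed line at equal differences; the x values chose the genes. With trans-zeatin 79 points lie above 0 on the y axis and all but PUP10 lie under the dashed line.

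Levels with trans-zeatin were lower at low than at full phosphate in 83 of the 84 genes, and in 80 of them no libraries overlapped. PUP10 was the exception, a direction fixed by the CPM floor, which it reached only with trans-zeatin at low phosphate. The median L difference between these groups was -1.28. As the full-phosphate group was chosen for being high, this is a description. In untreated roots 67 genes had a lower mean at low phosphate, with a median of -0.43; libraries did not overlap in 48 of them downward, against 33.8% of genes above the floor, and in 12 genes upward, against 28.4%. The rule used both groups, so nothing is read from these counts. The level of the 84 genes in starved roots with trans-zeatin was near that of untreated roots at full phosphate, with a median difference of 0.05: 45 genes were higher in the mean and 39 lower. TPS11 with trans-zeatin at low phosphate stood above all untreated libraries at full phosphate, whereas STY46, at 252, 209 and 198 CPM against 280.2, 330.4 and 328 CPM, stood below.

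Markers of root cell types also differed between the groups, and their part in the levels of the 84 genes was not tested. All 7 root hair markers rose at low against full phosphate in untreated roots (edgeR, median log2 change 1.76), and their summed level was 371 to 413 CPM at full and 1482 to 1837 CPM at low phosphate. At full phosphate 4 of the 7 rose and 1 fell with cis-zeatin (median 0.74; summed level 641 to 996 CPM), and 1 rose and 2 fell with trans-zeatin (median -0.34; 279.6 to 430.3 CPM). Between the isomers at low phosphate 1 of 7 root hair markers, RSL4, was lower and 1 of 4 phloem markers, SUC2, higher with trans-zeatin, and none of the endodermis, xylem or root tip markers was called. The summed root hair level there was 1296 to 1767 CPM with trans-zeatin and 1347 to 2319 CPM with cis-zeatin. These ranges overlapped only through replicate 2 of each isomer, which stood apart from its group. Replicates 1 and 3 held 1767 and 1738 CPM with trans-zeatin and 2319 and 2119 CPM with cis-zeatin.

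Of 7 endodermis markers, 5 rose and 1 fell at low against full phosphate in untreated roots (median 0.44), with a summed level of 449 to 464 CPM at full and 550.3 to 698 CPM at low phosphate. At full phosphate 4 fell with trans-zeatin and 5 with cis-zeatin, to summed levels of 232 to 266 CPM and 221 to 278 CPM. Of 4 phloem markers 3 rose with each isomer at full phosphate, and of 7 xylem markers 1 rose with trans-zeatin and 5 with cis-zeatin. Of 5 root tip markers 3 fell with trans-zeatin and 2 with cis-zeatin. Over all genes tested at full phosphate, 24.2% rose and 25.3% fell with trans-zeatin, and 12.7% rose and 13.5% fell with cis-zeatin. At low against full phosphate in untreated roots, 22.9% of all genes rose and 21.8% fell.

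A list of dark-inducible and carbon-starvation genes was compiled with earlier results of these data known, so its counts are no independent evidence. Of its 19 genes outside the selection, 16 rose and 1, BZIP11, fell with trans-zeatin at full phosphate, at a median log2 change of 1.17, while with cis-zeatin 3 rose and 3 fell, at a median of -0.10; over all genes 12.7% rose and 13.5% fell with cis-zeatin. Low phosphate alone lowered 14 and raised none (22.9% of all genes rose and 21.8% fell). At low phosphate 10 of the 19 were higher and none lower with trans- than with cis-zeatin (median 0.37). SEN1, a senescence-associated gene, differed by 1.61 ± 0.28 (SE, adjusted p = 0.00322 in edgeR) and DIN6, an asparagine synthetase, by 1.74 ± 0.22 (adjusted p = 0.000185). DIN10, a raffinose synthase-like gene, differed by 0.68 ± 0.10, and the dormancy-associated DRM1 and DRM2 by 0.81 ± 0.16 and 1.51 ± 0.25. MCCA, the partner subunit of MCCB, differed by 0.74 ± 0.15, IVD, the leucine-pathway dehydrogenase one step earlier, by 0.41 ± 0.10, and DIN3, of the branched-chain keto acid dehydrogenase, by 0.64 ± 0.16. DIN6 also rose with cis-zeatin at full phosphate, by 2.25 ± 0.24.

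**Figure D5:**
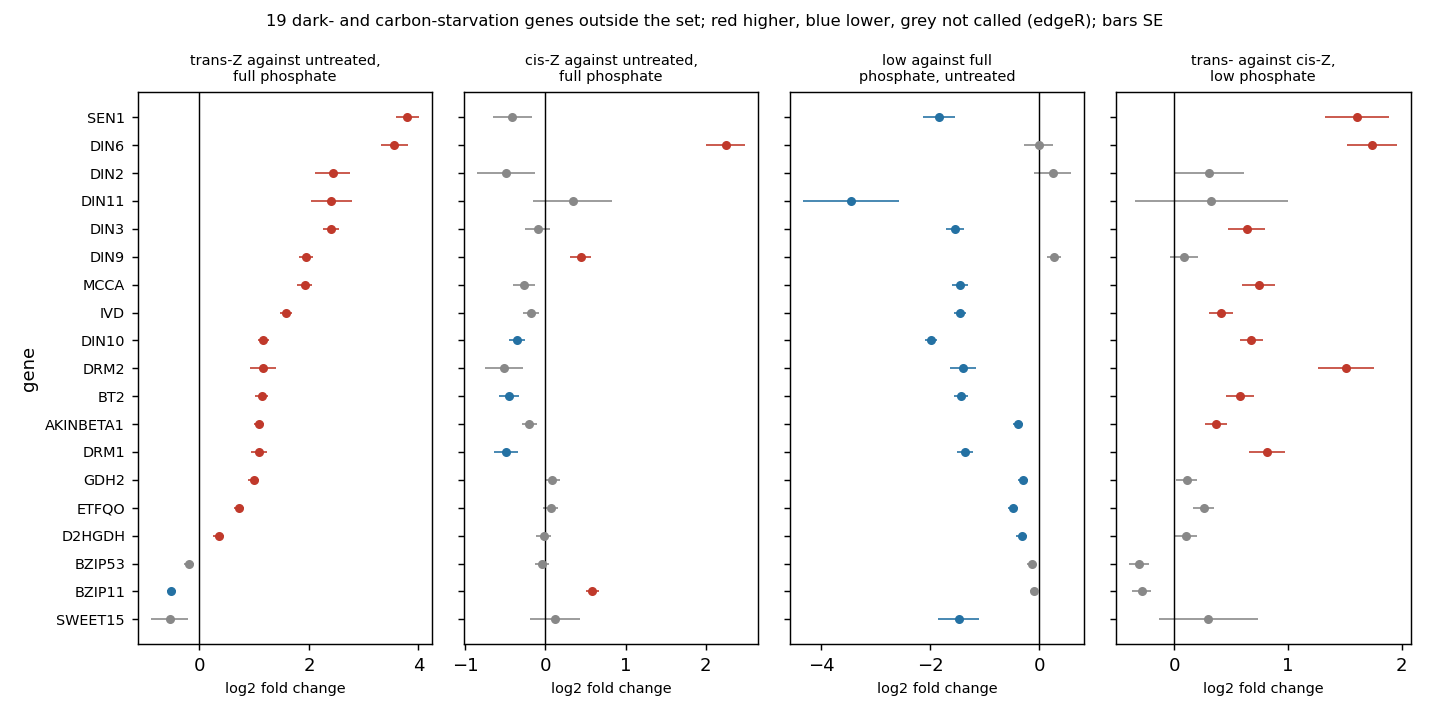
Log2 fold change with SE of 19 dark- and carbon-starvation genes that are not among the 84, in 4 contrasts from edgeR; red is higher, blue lower and grey not called. With trans-zeatin at full phosphate 16 are red and BZIP11 is blue; at low phosphate against cis-zeatin 10 are red and none is blue.

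Of the other class II trehalose-phosphate synthases, TPS9, TPS10 and TPS6 rose and TPS5 and TPS7 fell with trans-zeatin at full phosphate, by 0.94 ± 0.09, 0.25 ± 0.09, 0.57 ± 0.11, -1.08 ± 0.08 and -0.24 ± 0.06 (log2, SE, edgeR). At low phosphate TPS9 was higher with trans- than with cis-zeatin, by 0.48 ± 0.09 (adjusted p = 0.00576), and TPS6, at 0.41 ± 0.11, did not pass (adjusted p = 0.0572). Of 10 type-A response regulators, the primary cytokinin response genes, none was called between the isomers at low phosphate, with log2 differences of -0.21 to 0.18, and all 10 rose with each isomer against the shared untreated roots. None of the 6 cytokinin oxidases, which degrade the hormone, was called between the isomers at low phosphate either, at a median of 0.18. Of 14 abscisic acid signalling genes 10 rose and 1 fell with trans-zeatin at full phosphate (24.2% and 25.3% of all genes). With cis-zeatin 8 rose and none fell (12.7% and 13.5% of all genes). At low phosphate 1 was higher with trans- than with cis-zeatin (1.35% of all genes).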

How the data were processed

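The authors deposited whole-number counts per gene for 18 libraries and a sequencing report with numbers of reads, per the file headers. The table is named as normalized, but its totals differ between libraries and make up 88.66 to 91.02% of the clean reads, so the deposited counts were analysed as raw counts. HISAT2, HTSeq, edgeR, FastQC and CASAVA 1.4 are named, per the submitters' processing notes; other versions, the genome build and the strand setting are not given in the sources used here. Without a strand setting, reads of the 30 genes that overlap another gene in TAIR10.1 are uncertain.

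Genes were selected on CPM by column total with a pseudocount of 1. The pseudocount shrinks differences at low CPM, so genes with few reads can change by over 2-fold inside the phosphate band. PSAN did so between untreated roots, with a log2 change of -1.39 in edgeR. Tests used edgeR 4.0.16 in R 4.3.3 (filterByExpr with a minimum count of 10, TMM factors of 0.953 to 1.063, glmQLFit with a mean per group and all 18 libraries, glmQLFTest), with Benjamini-Hochberg adjustment over 19982 genes. The SE is the log2 change divided by the square root of F. Tested on simulated data for the isomer contrast at low phosphate (19791 genes), the fit called 20% of genes changed 1.25-fold, 76% at 1.5-fold, 100% at 2-fold, and 9 unchanged genes. The changed genes were drawn only from those above a minimum mean count, and no simulated library stood apart from its group. These numbers therefore do not cover genes with few reads or the zeatin replicates 2 that stood apart. All 84 genes matched RefSeq by locus identifier.

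The selection rule and the gene lists were chosen with earlier results of these data known, and roles were assigned after values were seen. Named genes are the 20 largest rises and 10 highest levels per kb at full phosphate, the members on a list, the largest called changes at low phosphate (8, or 5 for each isomer against untreated) and those at the edges of the rule; others are named by role. Replicate numbers were checked for pairing by the correlation of deviations from group means: trans-zeatin and untreated roots at low phosphate paired (0.27, 0.30 and 0.17), the isomers (0.08, -0.07 and 0.01) and cis-zeatin with untreated (0.06, 0.07 and 0.05) did not. Alternatives were DESeq2 1.42.0, median-of-ratios scaling, other filters, only the compared groups, a replicate block, a fold threshold, leaving out each library, other settings of the rule and, chosen after seeing the data, the sequencing set as a term, a single same-set library, and leaving out both zeatin replicates 2 at low phosphate.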

Additional observations from a re-analysis of the deposited data

Results flagged for a closer look

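HDR and AT3G26510 drew attention because all their libraries moved in opposite directions at the 2 phosphate levels: every trans-zeatin library lay above every untreated one at full phosphate and below every untreated one at low phosphate. In L, HDR differed by 1.05 at full phosphate and by -0.49 at low phosphate, and AT3G26510 by 1.11 and -0.58. The rise at full phosphate chose these genes, and the difference between the phosphate levels was not tested.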

How the results depend on the processing

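No call among the genes tested changed sign in any alternative. For trans- against cis-zeatin at low phosphate 18 of the 84 genes were called, and 553 over all genes. DESeq2 called 29 of the 84 and 898 over all genes, and the fit of the compared groups alone 6 and 79. A fold of at least 2 left 4, and no count over all genes was made at that fold in any comparison. Leaving out 1 library gave 10 to 22, with 293 to 847 over all genes, and the 1 lower call came without cis-zeatin replicate 1. For trans-zeatin against untreated 54 were called, PUP10 included, and 6440 over all genes. A fold of at least 2 left 12 of the 54. Leaving out 1 library gave 41 to 55, with 5336 to 6057 over all genes. For cis-zeatin against untreated 31 were called, and 6233 over all genes. A fold of at least 2 left 3, and the sequencing set as a term gave 12, with 2678 over all genes. Leaving out 1 library gave 23 to 35, with 5226 to 6260 over all genes. The cause was not tested. The numbers with a replicate block were 16, 54 and 29, with 470, 6315 and 6080 over all genes. The block changed no count by over 1.5 times. The replicate numbers paired the libraries only for trans-zeatin against untreated, where the block kept 53 of 54 calls. Named genes lost their call in 96 of 707 gene and setting pairs. The rule itself gave 171 genes with a rise of 0.8, 20 with 1.5, 54 with a cis-zeatin band of 0.2 and 54 with a floor of 20 CPM; leaving out 1 library gave 77 to 93, TMM scaling 105 (73 of them shared). The 3 libraries per group, genes under 5 CPM and the sequencing sets limit what can be said of small differences.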
